A study of Homo sapiens with 16 samples.

Results

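The nuclear genes for the subunits of the mitochondrial respiratory chain and of ATP synthase were followed in MDA-MB-231 cells through 16 RNA-seq libraries. They were chosen by symbol alone: names that begin NDUFA, NDUFB, NDUFC, NDUFS or NDUFV (complex I), SDHA to SDHD (complex II), UQCR (complex III), COX4 to COX8 (complex IV) or ATP5 (ATP synthase), without the assembly factors named NDUFAF. The rule found 91 of the 23228 genes counted. Of these, 40 carry symbols of complex I, 4 of complex II, 9 of complex III, 18 of complex IV and 20 of ATP synthase. From background knowledge, ATP5EP2, ATP5J2-PTCD1, ATP5L2, ATP5S, ATP5SL, NDUFC2-KCTD14, UQCRHL and COX4NB were taken as no subunits. They include pseudogene and read-through rows, and stay in the counts, medians and sums by complex unless stated. NDUFA4 stays under complex I, though it is now assigned to complex IV. A filter on low counts kept 82 of the 91 (38, 4, 9, 13 and 18 in that order of complexes), among 13948 genes kept in all. The choice of members used no measured value, but it was made with earlier results of these data known.

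MDA-MB-231 is a human breast cancer line with mesenchymal features, grown here in DMEM with 10% serum. At each of 2 times, 8 h and 24 h, cells received 1 of 4 treatments. These were the combination (sorafenib at 1 µM for 12 h and then MMS), MMS (methyl methanesulfonate, a DNA-methylating agent) alone, sorafenib (a multikinase inhibitor) at 1 µM alone, or the solvent DMSO. Each of the 8 groups held 2 libraries from sub-confluent dishes. The times of the combination run from the addition of MMS, so that its cells had 12 h more of sorafenib than those on sorafenib alone. The MMS dose is given as 40 µg/mL in the series description and as 40 µM in the sample labels. All groups come from this single line.

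Respiration passes electrons from NADH through complex I, or from succinate through complex II, to coenzyme Q, complex III, cytochrome c and complex IV, where oxygen is reduced. Complexes I, III and IV pump protons out of the matrix, and ATP synthase, made of a catalytic F1 head and a membrane rotor, uses their return to make ATP. Except for complex II, each of these assemblies joins nuclear-encoded subunits with a few made from mitochondrial DNA, and those few were not analysed here. Breast cancer cells of this line are known for strong glycolysis, with a respiratory chain that still works.

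The libraries held between 16774156 and 26448212 counted reads (median 20348700), and the 91 genes took 0.638 to 0.811% of them. Levels below are CPM, the counts of a gene scaled to the library's gene total, with the value of replicate 1 first. Replicate 1 libraries have titles that begin MDA231 and replicate 2 libraries titles that begin MDAMB231, 1 of each in every group. The label of the line was checked against its markers. VIM had between 1479 and 2476 CPM and ZEB1 between 56.8 and 116 CPM, while ESR1 reached at most 0.224 CPM and PGR 0.674 CPM. Other luminal epithelial markers were not absent: KRT19 had between 94.7 and 302 CPM, ERBB2 between 56.9 and 100.4 CPM, EPCAM between 8.86 and 19.3 CPM, GATA3 between 4.65 and 10.7 CPM and CDH1 at most 9.34 CPM. Of the 6 markers of other cell types, COL1A1 had between 5.34 and 18.6 CPM, PECAM1 reached 6.81 CPM, ACTA2 3.19 CPM, PTPRC 1.36 CPM, COL1A2 0.457 CPM and VWF 0.201 CPM. The combined level of 6 mesenchymal markers (VIM, CD44, EGFR, AXL, ZEB1 and CAV1) moved with MMS: it was 3840 and 4369 CPM in the combination at 8 h, 3935 and 4424 CPM in MMS at 8 h, 3851 and 4027 CPM in the combination at 24 h, and 4017 and 4221 CPM in MMS at 24 h. The same markers had 5339 and 5816 CPM in DMSO at 8 h and 5115 and 5507 CPM in DMSO at 24 h. The part of these shifts in the results below was not tested.

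The 2 libraries of the combination at 8 h lay further apart for the respiratory chain genes than those of any other group. Replicate 1 had 8108 CPM summed over all members, against 6770 CPM in replicate 2, 19.8% more, and 76 of the 82 genes were higher in replicate 1. Replicate 1 was also higher for 60 (MMS), 68 (sorafenib) and 70 (DMSO) of the 82 genes at 8 h. At 24 h the counts were 62 (combination), 68 (MMS), 44 (sorafenib) and 37 (DMSO). Which library of the pair departed cannot be told from 2 libraries. The other 7 groups had sums of 6755 and 6381 CPM (MMS, 8 h), 7806 and 7322 CPM (sorafenib, 8 h), 7447 and 6949 CPM (DMSO, 8 h), 7717 and 7373 CPM (combination, 24 h), 7772 and 7452 CPM (MMS, 24 h), 7810 and 7799 CPM (sorafenib, 24 h) and 7907 and 8026 CPM (DMSO, 24 h). Every comparison with the combination at 8 h therefore depends on how its pair of libraries is read. Values without its replicate 1 are given beside the members and lists named there.

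**Figure D1:**
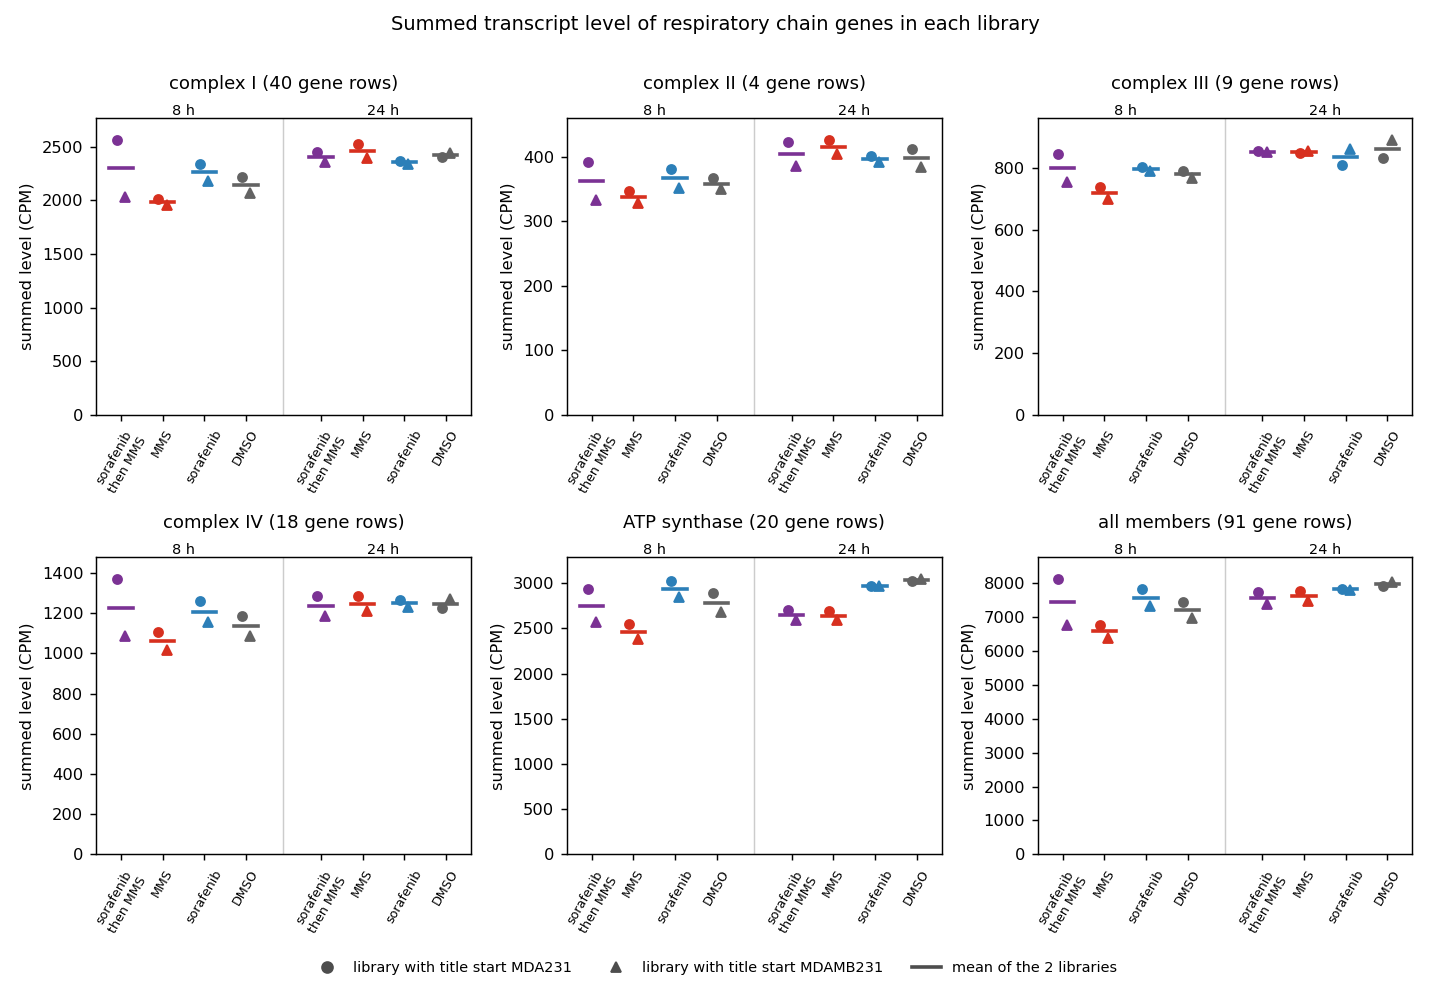
Summed level of the members of each complex in every library, in CPM on an axis from 0, with 1 point per library and a line at the mean of the 2 libraries of a group. The ATP synthase sums of MMS and the combination at 24 h, between 2590 and 2705 CPM, lie below those of DMSO at 24 h, 3029 and 3044 CPM.

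MMS alone was set against DMSO at 8 h to see the early response to alkylation. A single member changed: NDUFC2, an accessory subunit in the membrane arm of complex I, rose. It had 39.0 and 36.0 CPM in MMS cells and 26.2 and 24.0 CPM in DMSO cells, so that both MMS libraries lay above both DMSO libraries. The log2 change was 0.62 ± 0.16 SE (95% interval 0.28 to 0.96, 53.6% higher, adjusted p = 0.0118, edgeR's quasi-likelihood test with Benjamini-Hochberg adjustment over all genes). In bulk RNA, fewer cells of a kind and less RNA per cell cannot be told apart, and this holds for every level below. NDUFC2 lies on chromosome 11, and the annotation also holds a read-through transcript, NDUFC2-KCTD14, which had at most 1 count in a library. How reads on the shared exons were split between these features is not given in the sources used here, so the level of NDUFC2 is uncertain to that extent. The call was lost without MMS replicate 1 (log2 change 0.55, adjusted p = 0.0782) and without DMSO replicate 2 (0.53, adjusted p = 0.0948).

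Of the 82 members, 1 rose and 0 fell in this comparison by edgeR, where 26.5% of all genes tested were called in either direction, 14.5% as higher and 12.0% as lower. DESeq2 called 1 higher and 2 lower, where it called 1977 higher and 1814 lower of 13231 genes. In edgeR 4 members had an unadjusted p under 0.05. The members moved little as a group: the median log2 change was -0.09, against 0.00 over all genes, and the median size of the change was 0.10, against 0.28. The members' median was -0.04 without DMSO replicate 1 and -0.16 without DMSO replicate 2. The signs leaned one way: 69 of 82 were below 0. Both MMS libraries lay below both DMSO libraries for 44 members, and above them for 2. Over all genes 33.4% lay below in this way and 28.6% above.

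With the title start as a replicate block, used because libraries with the same title start deviated together, 1 member rose and 7 fell at 8 h, where 43.3% of all genes were then called. Among the 7 were 4 subunits of ATP synthase. ATP5G1 had 46.4 and 52.6 CPM in MMS cells and 68.0 and 61.5 CPM in DMSO cells (log2 change -0.35, adjusted p = 0.0572 without and 0.014 with the block). ATP5G2 had 69.9 and 65.3 CPM in MMS cells and 93.5 and 83.5 CPM in DMSO cells (log2 change -0.35, adjusted p = 0.0669 and 0.0027 with the block). These 2 genes code for the c subunit of the rotor ring, and their groups did not overlap. ATP5A1 (-0.26, adjusted p = 0.188 and 0.0017) and ATP5C1 (-0.23, adjusted p = 0.172 and 0.0181) of the F1 head passed only with the block as well. So did 3 accessory subunits of complex I, NDUFB1 (-0.39), NDUFB3 (-0.33) and NDUFA2 (-0.29).

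By complex, ATP synthase had the lowest median at 8 h, a log2 change of -0.13 over its 18 genes, 17 of them below 0. Its summed level was 2463 ± 118 CPM in MMS cells and 2786 ± 146 CPM in DMSO cells (SD, n = 2 each), 11.6% lower, with libraries that did not overlap. The sums of complexes I, II and III were lower by 7.10, 5.75 and 7.88% without overlap, and the groups overlapped for complex IV. When the library totals were scaled by TMM factors, the 2 groups stayed apart only for ATP synthase, 9.26% lower, and overlapped for the other complexes. On that scale each MMS library still lay below the DMSO library of the same number for every complex (complex I 2113 against 2288 CPM in replicate 1, and 2032 against 2065 CPM in replicate 2). No test was run on sums.

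Of the 18 ATP synthase genes tested, 4 were among the 6 members called as lower in MMS cells at 24 h. Over all genes 16.3% were called as lower. ATP5C1, ATP5B and ATP5A1, the gamma, beta and alpha subunits of the F1 head, and ATP5G2, a c subunit gene, fell by 17.1 to 34.0%. UQCRC2, a core subunit of complex III, and NDUFV2, a subunit of the NADH-oxidising module of complex I, fell too. NDUFAB1, COX4NB and COX7A2L rose. Of the 82 members, 3 rose and 6 fell, where 31.5% of all genes tested were called (15.2% higher, 16.3% lower), so that the members were not called more often than genes in general. DESeq2 also called 3 and 6, where it called 2150 higher and 2278 lower of 14328 genes. The count of 9 dropped with any library of either group left out, and fewer of all genes were called in each of these fits too. With the replicate block 6 rose and 18 fell, where 48.3% of all genes were called. The median log2 change of the members was -0.06 (0.00 over all genes), and the median size 0.14 (0.31 over all genes). The median was 0.02 without MMS replicate 2 and -0.10 without MMS replicate 1, so that the sign of the median was not firm. Summed over all members, the level was 4.47% lower in MMS cells without overlap, and 7.88% lower with TMM scaling. Each MMS library lay below the DMSO library of the same number (7772 against 7907 CPM, and 7452 against 8026 CPM).

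ATP5C1, the gamma subunit that turns inside the F1 head, had the smallest p of the members. It had 137 and 173 CPM in MMS cells and 202 and 237 CPM in DMSO cells at 24 h. Both MMS libraries lay below both DMSO libraries, and replicate 2 was the higher library in each group. The log2 change was -0.56 ± 0.12 SE (95% interval -0.81 to -0.31, adjusted p = 0.00339, edgeR). The call held with each of the 4 libraries left out in turn.

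ATP5B, the catalytic beta subunit, had 865 and 874 CPM in MMS cells and 1001 and 1024 CPM in DMSO cells. The replicates of a group lay much closer together than the groups. The log2 change was -0.27 ± 0.07 SE (adjusted p = 0.0096, edgeR), and the call was lost without either MMS library or without DMSO replicate 2 (adjusted p 0.0671 to 0.0892). ATP5A1, the alpha subunit, had 431 and 378 CPM in MMS cells and 543 and 494 CPM in DMSO cells, without overlap. Its log2 change of -0.41 ± 0.14 SE (adjusted p = 0.0402, edgeR) was lost without any 1 of the 4 libraries (adjusted p 0.069 to 0.294).

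The c subunit of the rotor ring is encoded by 3 genes, ATP5G1, ATP5G2 and ATP5G3, whose proteins differ in the leader that is cut off on import. ATP5G2 had 65.5 and 61.8 CPM in MMS cells and 90.4 and 95.8 CPM in DMSO cells, with a clear gap between the groups. Its log2 change was -0.60 ± 0.13 SE (95% interval -0.89 to -0.31, adjusted p = 0.00479, edgeR), the largest fall among the members called, and it was lost without MMS replicate 2 (adjusted p = 0.0564). ATP5G1 had 68.1 and 56.4 CPM in MMS cells and 73.5 and 74.3 CPM in DMSO cells (log2 change -0.30, adjusted p = 0.0904, and 0.0274 with the block). ATP5G3 had 178 and 167 CPM in MMS cells and 201 and 193 CPM in DMSO cells (log2 change -0.24, adjusted p = 0.172, and 0.0114 with the block). All 3 genes were lower in both MMS libraries, and whether their changes differed was not tested. The 3 share much of their coding sequence and have processed copies (7 named pseudogenes for ATP5G1, 3 for ATP5G2, and 7 for ATP5A1 above), so that the split of reads among them is uncertain.

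Not every subunit of the enzyme was lower. Of the 18 ATP synthase genes tested, 0 rose and 4 fell, where 15.2% of all genes rose and 16.3% fell. With the block 0 rose and 10 fell, where 3212 of 13948 genes rose and 3518 fell. Of the 18, 14 had a log2 change below 0, and the median was -0.22. ATP5F1 of the peripheral stalk had 154 and 143 CPM in MMS cells and 148 and 139 CPM in DMSO cells, and the groups overlapped (log2 change 0.00, adjusted p = 0.979, edgeR). ATP5D, the delta subunit of the head's central stalk, had 50.4 and 44.2 CPM in MMS cells and 33.2 and 40.3 CPM in DMSO cells, with both MMS libraries above (log2 change 0.31, adjusted p = 0.214). The summed level of the complex was 2641 ± 69.6 CPM in MMS cells and 3037 ± 11.2 CPM in DMSO cells (SD, n = 2 each), 13.0% lower without overlap, and 16.1% lower with TMM scaling. Without the genes under these symbols that code for no subunit of the enzyme, it was 13.9% lower.

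**Figure D2:**
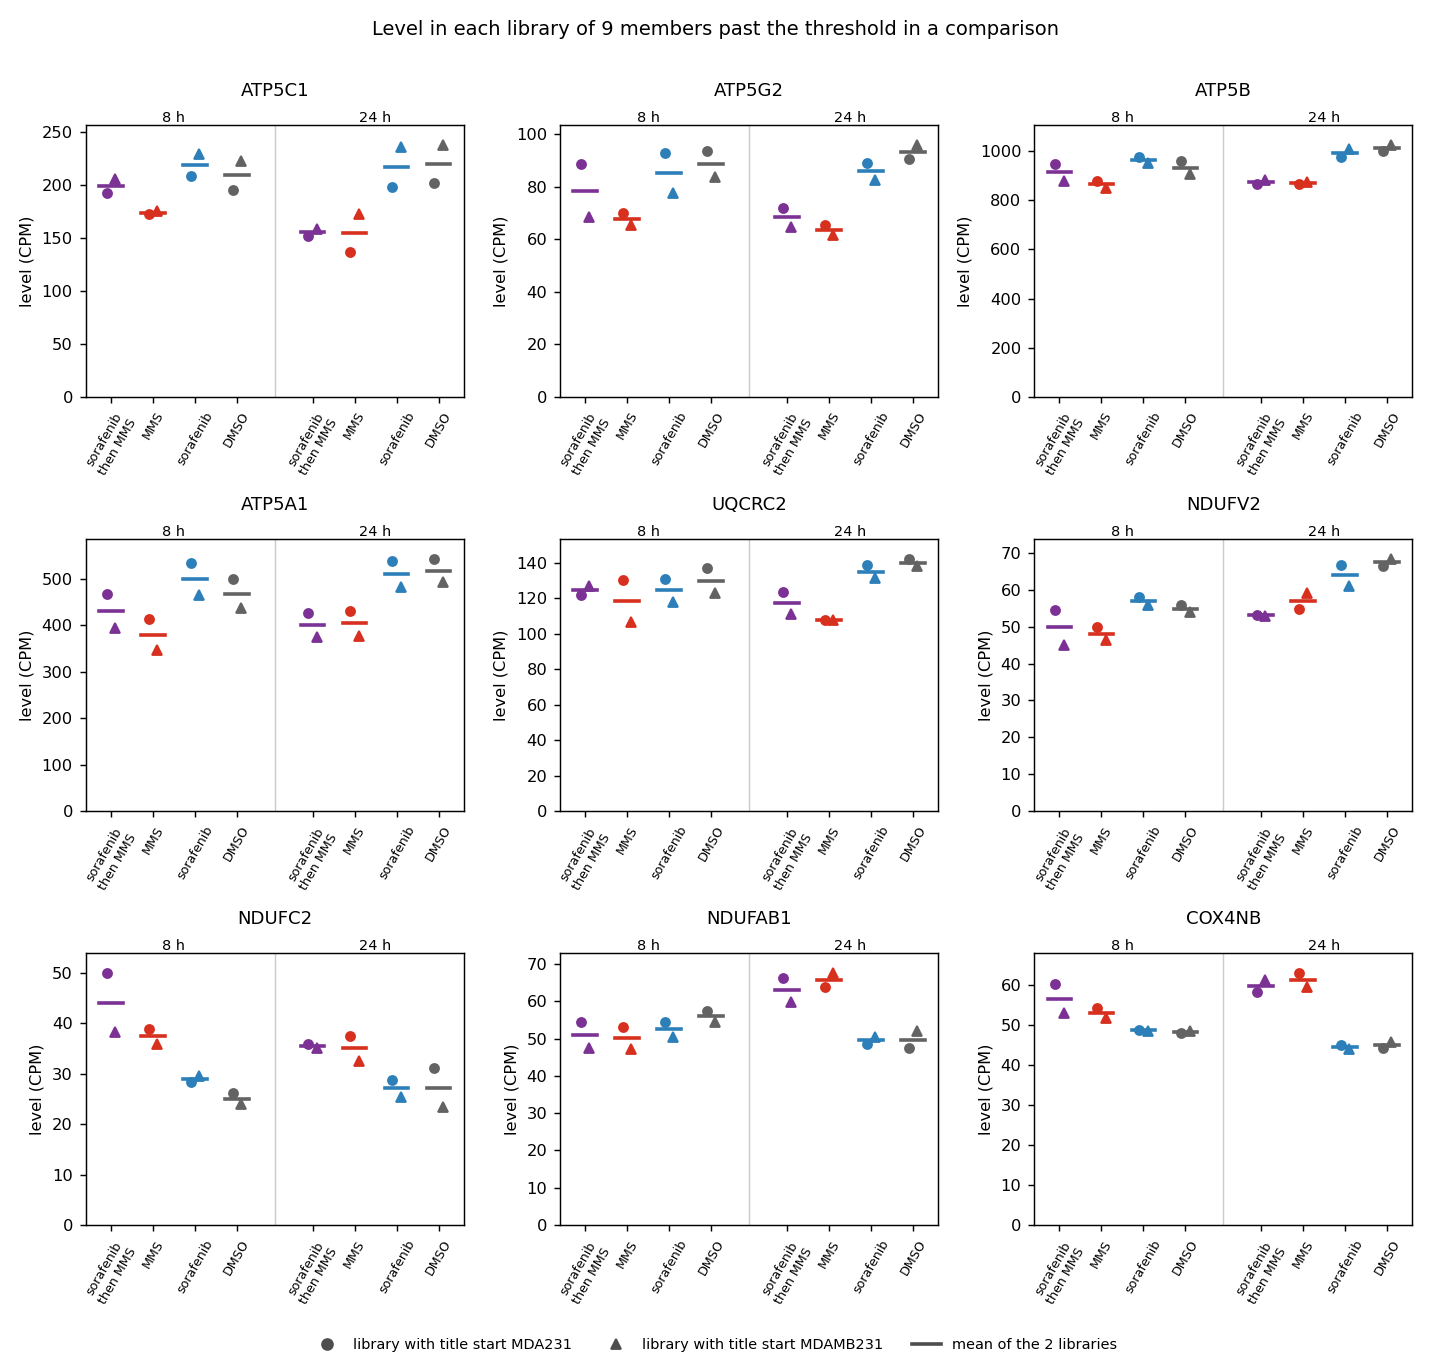
Level of 9 members in each library, in CPM on axes from 0, with 1 point per library and a line at the group mean. At 24 h ATP5C1, ATP5B and ATP5G2 lie lower in MMS and the combination than in sorafenib and DMSO without overlap, while COX4NB lies higher, and NDUFC2 at 8 h lies higher in MMS and the combination than in DMSO.

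The 38 complex I genes gave 1 rise and 1 fall at 24 h, where 15.2% of all genes rose and 16.3% fell. With the block 4 rose and 3 fell, where 48.3% of all genes were called. NDUFV2, which holds an iron-sulphur cluster of the NADH-oxidising module, had 54.8 and 59.1 CPM in MMS cells and 66.6 and 68.3 CPM in DMSO cells, without overlap. Its log2 change was -0.30 ± 0.09 SE (adjusted p = 0.0297, edgeR), which was lost without any 1 of the 4 libraries (adjusted p 0.0757 to 0.216). NDUFAB1, the mitochondrial acyl carrier protein that is also a complex I subunit, had 63.9 and 67.5 CPM in MMS cells and 47.5 and 52.0 CPM in DMSO cells, again without overlap. Its log2 change was 0.35 ± 0.10 SE (adjusted p = 0.0189, edgeR), lost without DMSO replicate 1 or either MMS library (adjusted p 0.0594 to 0.113).

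Further catalytic core subunits of complex I did not pass the test at 24 h: NDUFS1, NDUFS3, NDUFS7, NDUFS8 and NDUFV1 had log2 changes between -0.15 (NDUFV1) and 0.13 (NDUFS3). NDUFS1, the largest of them, had 145 and 138 CPM in MMS cells and 148 and 130.2 CPM in DMSO cells, and the groups overlapped. The summed level of complex I was 1.35% higher in MMS cells on library totals and 2.28% lower with TMM scaling, so that no direction can be given for it.

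Complex II, which also serves the tricarboxylic acid cycle, gave 0 calls by edgeR, with and without the block, 0 by DESeq2 and 0 at an unadjusted p under 0.05. Of all genes 31.5% were called by edgeR without and 48.3% with the block. SDHA, its flavoprotein, had 170 and 153 CPM in MMS cells and 163 and 157 CPM in DMSO cells (log2 change -0.03, 95% interval -0.29 to 0.23). SDHB, its iron-sulphur subunit, had 134 and 134 CPM in MMS cells and 123 and 118 CPM in DMSO cells (0.10, -0.08 to 0.28). Only SDHB showed groups that did not overlap. The membrane anchors SDHC (-0.12, -0.33 to 0.10) and SDHD (0.00, -0.27 to 0.27) had overlapping groups. None of the 4 intervals reached a 1.5-fold change.

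In complex III, 1 of 9 genes fell, where 16.3% of all genes did. UQCRC2 had 108 and 108 CPM in MMS cells and 142 and 138 CPM in DMSO cells at 24 h, with a gap far wider than the difference between replicates. Its log2 change was -0.43 ± 0.11 SE (95% interval -0.67 to -0.19, adjusted p = 0.0106, edgeR), and it was lost without DMSO replicate 1 or either MMS library (adjusted p 0.0521 to 0.0809). UQCRC1, its partner core protein, had 129.5 and 167 CPM in MMS cells and 131 and 187 CPM in DMSO cells (log2 change -0.16). For that gene the replicates of a group lay further apart than the groups. UQCRFS1, the Rieske iron-sulphur protein, had 72.5 and 64.9 CPM in MMS cells and 67.8 and 64.7 CPM in DMSO cells, which overlapped (log2 change 0.00).

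Among the 13 genes under complex IV symbols, 2 rose and 0 fell at 24 h, where 15.2% of all genes rose and 16.3% fell. With the block 2 rose and 4 fell, where 48.3% of all genes were called. COX7A2L, known as a factor that joins complex III to complex IV in supercomplexes, had 123 and 123 CPM in MMS cells and 103 and 101 CPM in DMSO cells, without overlap. Its log2 change was 0.22 ± 0.07 SE (adjusted p = 0.0423, edgeR), lost without any 1 of the 4 libraries (adjusted p 0.0685 to 0.167). COX4NB had 62.9 and 59.5 CPM in MMS cells and 44.1 and 45.7 CPM in DMSO cells, a clear gap. Its log2 change of 0.39 ± 0.08 SE (95% interval 0.21 to 0.57, adjusted p = 0.00362, edgeR) held with each of the 4 libraries left out in turn. COX4NB carries a COX4 symbol because it neighbours COX4I1, but its current name is EMC8, a subunit of a membrane protein insertase of the endoplasmic reticulum, and it is no part of complex IV.

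The other complex IV genes did not pass the test. COX4I1 had 182 and 157 CPM in MMS cells and 164 and 181 CPM in DMSO cells at 24 h, which overlapped (log2 change -0.08, 95% interval -0.34 to 0.19, adjusted p = 0.67, edgeR). COX6A1 (0.06), COX6B1 (-0.10), COX8A (0.05) and NDUFA4 (0.01), which its symbol places under complex I here but which is now assigned to complex IV, did not pass either. COX7A2 had 69.5 and 81.2 CPM in MMS cells and 81.8 and 89.5 CPM in DMSO cells, without overlap by a narrow margin (log2 change -0.24, adjusted p = 0.085, and 0.0271 with the block).

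**Figure D3:**
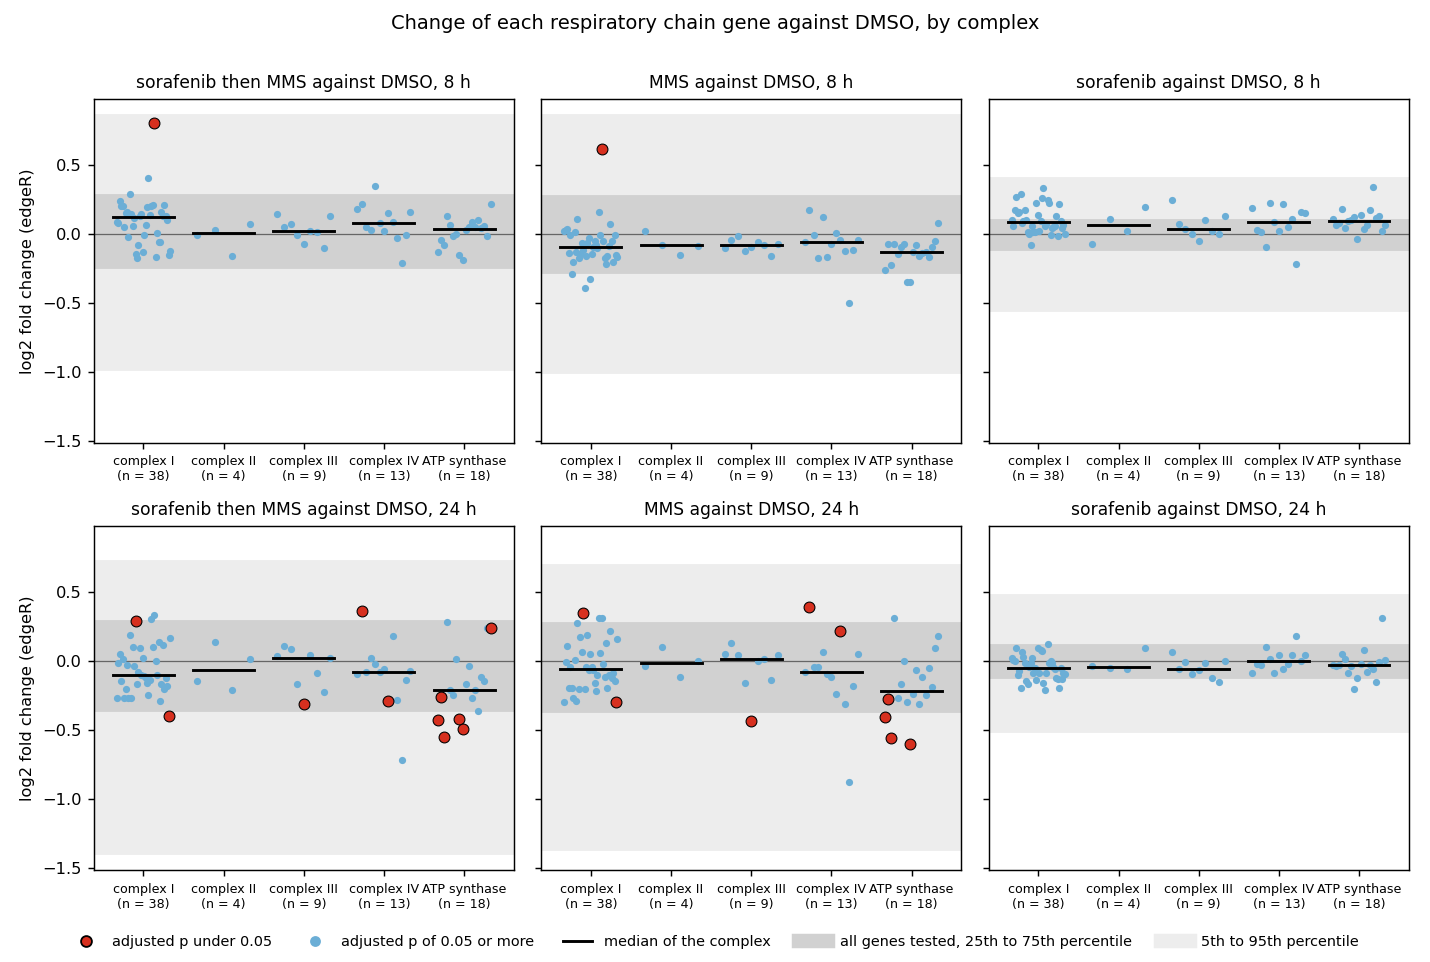
Log2 change of each of the 82 members from DMSO, by complex, 1 point per gene, for the combination, MMS and sorafenib at 8 h and 24 h. Red points passed an adjusted p of 0.05, black lines are medians of a complex, and grey bands span the percentiles of all genes. The ATP synthase medians at 24 h lie at -0.21 for the combination, -0.22 for MMS and -0.03 for sorafenib.

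Upstream sequences are shown for 3 members that fell under MMS at 24 h, 1 from each of ATP synthase, complex III and complex I, and for the stretch between COX4NB and COX4I1, since only 1 of these neighbours was called. They come from RefSeq on GRCh38.p14, a later build than the hg19 of the counts, and end at the base before the transcription start. Capitals mark CGCATGCG, a core of the binding motif of NRF1, a known regulator of respiratory genes.
ATP5C1, chr10:7787927-7788176, plus strand: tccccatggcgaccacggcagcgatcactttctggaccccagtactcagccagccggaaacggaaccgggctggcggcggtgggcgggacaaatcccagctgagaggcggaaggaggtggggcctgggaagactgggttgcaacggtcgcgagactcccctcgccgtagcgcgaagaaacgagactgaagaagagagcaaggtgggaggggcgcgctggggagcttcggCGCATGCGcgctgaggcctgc
UQCRC2, chr16:21953111-21953360, plus strand: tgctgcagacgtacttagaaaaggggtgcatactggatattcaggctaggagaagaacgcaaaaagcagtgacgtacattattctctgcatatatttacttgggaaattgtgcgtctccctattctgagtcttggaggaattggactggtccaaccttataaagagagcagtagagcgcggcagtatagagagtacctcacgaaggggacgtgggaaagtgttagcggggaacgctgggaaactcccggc
NDUFV2, chr18:9102449-9102698, plus strand: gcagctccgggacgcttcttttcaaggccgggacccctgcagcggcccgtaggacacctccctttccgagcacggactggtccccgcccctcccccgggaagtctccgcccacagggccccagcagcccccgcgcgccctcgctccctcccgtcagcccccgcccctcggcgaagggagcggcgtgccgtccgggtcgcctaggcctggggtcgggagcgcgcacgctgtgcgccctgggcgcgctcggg
COX4NB to COX4I1, chr16:85799545-85799694, plus strand, between 2 starts that face away from each other 150 bases apart: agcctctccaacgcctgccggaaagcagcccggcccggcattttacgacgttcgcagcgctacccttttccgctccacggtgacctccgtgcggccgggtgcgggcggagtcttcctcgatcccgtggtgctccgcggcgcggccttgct

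The ATP5C1 sequence held the motif 13 bases before the start, and the other 3 held no match to these letters. Among 86 windows of 250 bases upstream of 72 member genes found in the table by symbol, 11.6% held CGCATGCG on either strand (10 genes), against 1.73% of 35116 windows over all genes. CCGGAAG, a core of ETS family sites, was in 22.1% against 8.52%, TGACGTCA (a cyclic AMP response element) in 4.65% against 1.65%, and GGGCGG in 54.7% against 42.6%. CCAAT was in 31.4% against 32.0%. These shares describe letters in a window and show no binding.

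In the combination at 24 h, most of the 8 members called as lower were again ATP synthase genes, where 17.2% of all genes were called as lower. This comparison and that of MMS share their DMSO libraries, so they are not independent. ATP5C1 had 152 and 158 CPM in combination cells and 202 and 237 CPM in DMSO cells (log2 change -0.55 ± 0.11 SE, adjusted p = 0.00332, edgeR). ATP5G2 had 72.1 and 64.8 CPM in combination cells and 90.4 and 95.8 CPM in DMSO cells (-0.50 ± 0.13 SE, adjusted p = 0.012). ATP5G1 had 58.2 and 56.3 CPM in combination cells and 73.5 and 74.3 CPM in DMSO cells (-0.42 ± 0.12 SE, adjusted p = 0.0218). All 3 showed groups that did not overlap. ATP5B (-0.26 ± 0.07 SE, adjusted p = 0.0106) and ATP5A1 (-0.42 ± 0.14 SE, adjusted p = 0.0323) fell as well, and ATP5SL rose (0.24 ± 0.08 SE, adjusted p = 0.039). ATP5SL is now named DMAC2 and is known as an assembly factor of complex I, not as a subunit of ATP synthase.

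In all 3 members rose and 8 fell in the combination at 24 h, where 33.4% of genes were called (16.2% higher, 17.2% lower). DESeq2 called the same numbers of members, where it called 2204 higher and 2385 lower of 14694 genes. With the block 6 rose and 18 fell, where 50.5% of genes were called. The count of 11 dropped with any library of either group left out, and fewer of all genes were called in each of these fits too. NDUFV2 had 53.3 and 53.0 CPM in combination cells and 66.6 and 68.3 CPM in DMSO cells (log2 change -0.40 ± 0.09 SE, adjusted p = 0.00658). COX4NB had 58.3 and 61.3 CPM in combination cells and 44.1 and 45.7 CPM in DMSO cells (0.36 ± 0.08 SE, adjusted p = 0.00535). In both genes the replicates of each group lay close together on either side of a gap. UQCRC2 (-0.31 ± 0.11 SE, adjusted p = 0.0463), COX7A2 (-0.29 ± 0.10 SE, adjusted p = 0.0391) and NDUFAB1 (0.29 ± 0.10 SE, adjusted p = 0.0408) also passed. The succinate dehydrogenase genes did not: their log2 changes were -0.15 (SDHA), 0.14 (SDHB), -0.21 (SDHC) and 0.02 (SDHD).

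The calls of ATP5C1 and COX4NB in the combination at 24 h held with each library left out in turn. ATP5G2 was lost without DMSO replicate 2 (adjusted p = 0.0824) and without combination replicate 2 (0.127). NDUFV2 was lost without either combination library or DMSO replicate 2 (0.0505 to 0.0664), as was ATP5B (0.0699 to 0.0978). NDUFAB1 was lost without DMSO replicate 1 (0.191), combination replicate 1 (0.206) or DMSO replicate 2 (0.0653). ATP5A1 (0.0659 to 0.248), ATP5G1 (0.0689 to 0.127), ATP5SL (0.0909 to 0.129), COX7A2 (0.0512 to 0.219) and UQCRC2 (0.0803 to 0.312) were lost without any 1 of the 4.

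By complex, the 18 genes under ATP synthase symbols gave 1 rise (ATP5SL, no subunit of the enzyme) and 5 falls in the combination at 24 h. Over all genes 16.2% rose and 17.2% fell. The median log2 change of ATP synthase was -0.21. Its sum was 2647 ± 81.4 CPM in combination cells and 3037 ± 11.2 CPM in DMSO cells (SD, n = 2 each), 12.8% lower without overlap. Over all members the sum was 5.31% lower without overlap, and on library totals the sums of the other complexes overlapped. With TMM scaling, complex I (4.23% lower) and complex III (4.50% lower) did not overlap either. Complex I gave 1 rise and 1 fall, complex II 0 of either (0 by edgeR at an unadjusted p under 0.05, by DESeq2 and with the block), complex III 1 fall, and complex IV 1 rise and 1 fall.

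At 8 h the combination against DMSO gave 1 member that rose and 0 that fell by edgeR, where 24.3% of genes were called (12.5% higher, 11.8% lower). DESeq2 gave the same counts, where it called 1615 higher and 1865 lower of 12865 genes. In edgeR 6 members had an unadjusted p under 0.05, and with the block 6 rose and 0 fell, where 39.5% of genes were called. The member was NDUFC2 again, with 49.9 and 38.2 CPM in combination cells and 26.2 and 24.0 CPM in DMSO cells, well apart. Its log2 change was 0.80 ± 0.16 SE (95% interval 0.46 to 1.15, adjusted p = 0.00291, edgeR). Without combination replicate 1, the higher library of the pair, it was 0.58. At 24 h NDUFC2 had 36.0 and 35.2 CPM in combination cells, 37.6 and 32.5 CPM in MMS cells and 31.2 and 23.3 CPM in DMSO cells. The log2 changes from DMSO were then 0.33 for the combination (adjusted p = 0.126, and 0.0119 with the block) and 0.31 for MMS (adjusted p = 0.158, and 0.0216 with the block). With the block, NDUFA6, COX4NB, ATP5SL, COX6A1 and NDUFB7 also rose in the combination at 8 h. Without combination replicate 1 and with no block, their log2 changes were 0.16, 0.10, 0.14, 0.04 and 0.06 in that order (adjusted p 0.393 to 0.887), and 0 members were called.

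The comparison of the combination with MMS asked what sorafenib given beforehand added. At 8 h 0 of the 82 members passed by edgeR or DESeq2, where 0.624% of all genes did, and 7 had an unadjusted p under 0.05. With the block, where 9.51% of genes were called, NDUFA12, an accessory subunit of complex I, rose. It had 96.1 and 74.0 CPM in combination cells and 65.1 and 64.7 CPM in MMS cells, without overlap (log2 change 0.34, adjusted p = 0.267, and 0.0267 with the block). The change was 0.14 (adjusted p = 0.956) without combination replicate 1 and with no block. The signs were uneven: 78 of 82 changes were above 0 with a median of 0.16 (0.01 over all genes). Both combination libraries lay above both MMS libraries for 33 members and below them for 0, where 25.8% of all genes lay above and 14.6% below.

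The size of this lean depended on which combination library was left out. Without combination replicate 1 the median of the members was -0.01 at 8 h, and without combination replicate 2 it was 0.29. The first of these fits sets a replicate 2 library against MMS libraries of both numbers. Between libraries of the same number, the summed level was higher in the combination for both replicates, with and without TMM scaling. The summed level of all members was 12.8% higher in combination cells than in MMS cells on library totals, with replicates of 8108 and 6770 CPM in the combination and 6755 and 6381 CPM in MMS, so that the margin of the lower combination library was narrow. With TMM scaling it was 9.13% higher and the groups overlapped (8137 and 6864 CPM in the combination, 7078 and 6626 CPM in MMS).

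At 24 h no member passed between the combination and MMS. By edgeR, with and without the block, and by DESeq2, 0 members passed, where 0.122% of all genes did without and 2.03% with the block, and 0 had an unadjusted p under 0.05. The 95% interval of the change lay within 1.5-fold for 81 of 82 members, the exception being COX7B2. ATP5C1 had 152 and 158 CPM in combination cells and 137 and 173 CPM in MMS cells, which overlapped (log2 change 0.01, 95% interval -0.24 to 0.26). ATP5G2 had 72.1 and 64.8 CPM in combination cells and 65.5 and 61.8 CPM in MMS cells, which overlapped as well (0.10, -0.18 to 0.39). The interaction of sorafenib and MMS gave 0 members by edgeR, with and without the block, and by DESeq2 at both times, with 0 at an unadjusted p under 0.05. Of all genes 0% passed without the block, and 0.0502% at 8 h and 0.0287% at 24 h with it. Without combination replicate 1 the count of members at 8 h was 0 as well.

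Sorafenib alone against DMSO gave 0 members at 8 h by edgeR, with and without the block, and by DESeq2, where 0.394% of all genes were called without and 5.03% with the block, and 3 members had an unadjusted p under 0.05. At 24 h it likewise gave 0 by each of the 3, where 0.817% of genes were called without and 7.18% with the block, and 1 member had an unadjusted p under 0.05. The smallest adjusted p were 0.557 (NDUFC1, log2 change 0.24, at 8 h) and 0.508 (ATP5S, log2 change 0.32, at 24 h). ATP5C1 had 198 and 236 CPM in sorafenib cells and 202 and 237 CPM in DMSO cells at 24 h, which overlapped (log2 change -0.03, 95% interval -0.27 to 0.22). ATP5B had 977 and 1008 CPM in sorafenib cells and 1001 and 1024 CPM in DMSO cells at 24 h, also overlapping (-0.04, -0.18 to 0.11). The intervals lay within 1.5-fold for 77 of 82 members at 8 h and 78 at 24 h.

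Small leans of opposite sign were seen under sorafenib. At 8 h 71 of 82 changes were above 0 (median log2 change 0.08, against 0.00 over all genes), and both sorafenib libraries lay above both DMSO libraries for 20 members and below for 0, where 15.4% of all genes lay above and 19.3% below. At 24 h 58 of 82 changes were below 0 (median -0.03), and the libraries lay above for 2 members and below for 13, where 18.5% and 16.2% of all genes did. Single libraries moved these medians: that at 8 h was 0.01 without DMSO replicate 2, 0.03 without sorafenib replicate 1 and 0.16 without DMSO replicate 1, and that at 24 h ran from -0.06 to -0.02 with a library left out. The ATP synthase sum at 24 h was 2968 and 2970 CPM in sorafenib cells and 3029 and 3044 CPM in DMSO cells, 2.23% lower.

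**Figure D4:**
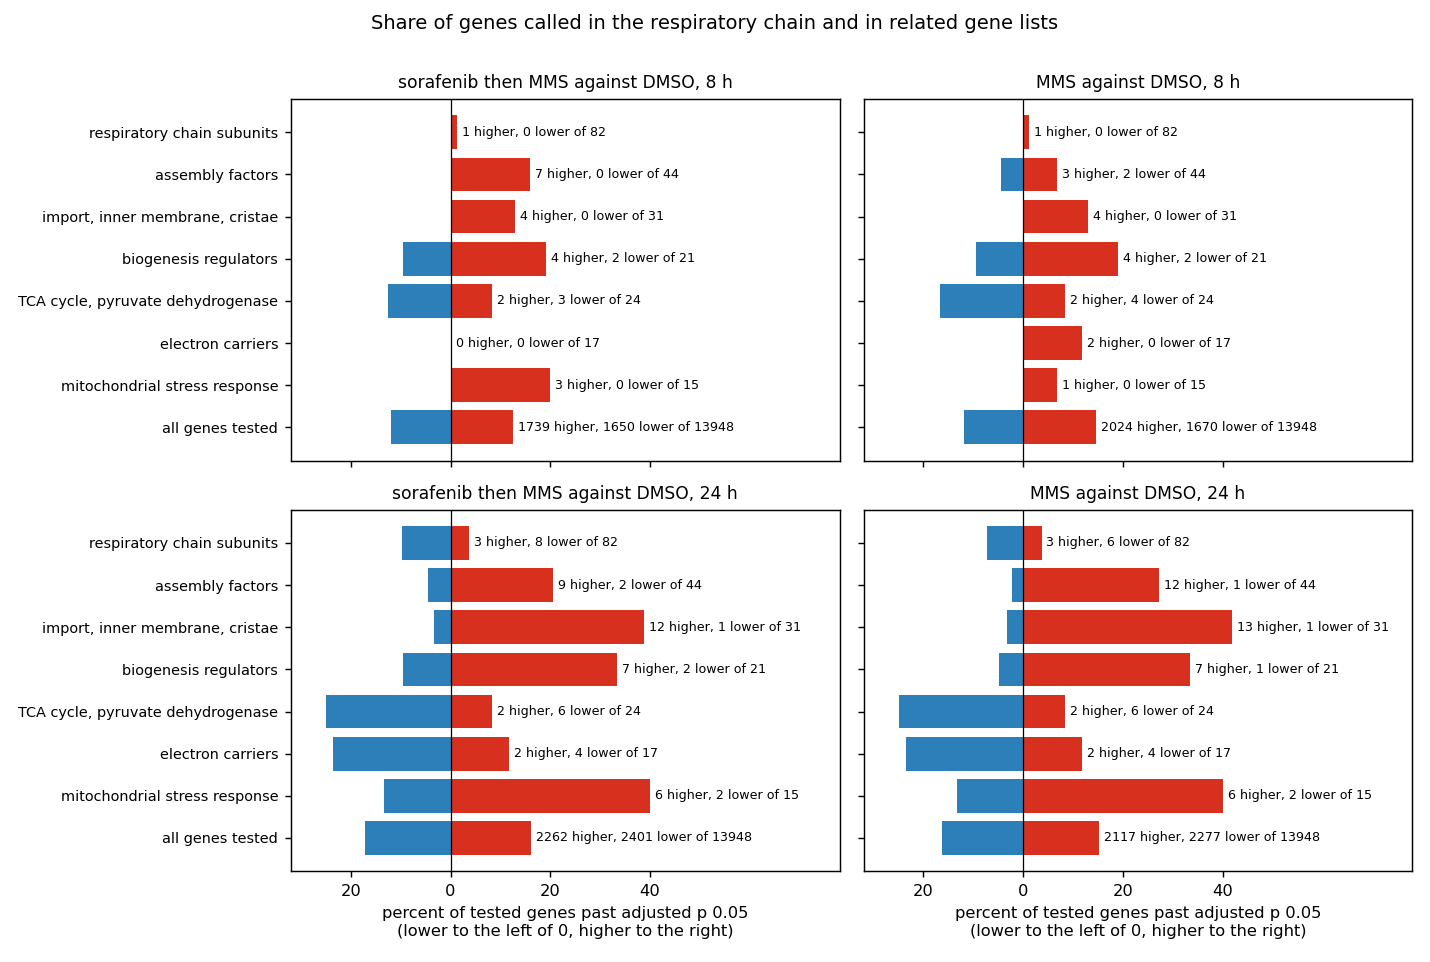
Share of genes past the adjusted threshold of 0.05, in percent of those tested, as higher (right of 0) and as lower (left of 0), for the respiratory chain subunits, 6 lists of related mitochondrial genes and all genes, in the combination and in MMS against DMSO. In the combination at 24 h the subunits give 3 higher and 8 lower of 82, and the assembly factors 9 higher and 2 lower of 44. Of all genes 16.2% are higher and 17.2% lower there. In MMS at 24 h the subunits give 3 higher and 6 lower, and the assembly factors 12 higher and 1 lower. Of all genes 15.2% are then higher and 16.3% lower.

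Culture time in DMSO was compared as 24 h against 8 h. By edgeR 0 members passed, where 0.660% of all genes did, and 9 had an unadjusted p under 0.05. DESeq2 called 0 higher and 1 lower, where it called 230 higher and 297 lower of 11768 genes. The block gave 5 higher and 1 lower, where 13.6% of genes were called. Levels leaned upward: 68 of 82 changes were above 0 with a median log2 change of 0.11 (0.01 over all genes), and the summed level of all members was 10.7% higher at 24 h. The median was 0.04 without the 8 h replicate 2 and 0.19 without the 8 h replicate 1. Both 24 h libraries lay above both 8 h libraries for 42 members and below for 5, where 24.2% and 18.3% of genes did. ATP5S, now named DMAC2L and known as a coupling factor of ATP synthase, had 8.89 and 8.18 CPM at 24 h and 11.9 and 12.7 CPM at 8 h, without overlap (log2 change -0.55, adjusted p = 0.079, and 0.00973 with the block).

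The change in the MMS effect from 8 h to 24 h gave 0 members by edgeR, where 9.13% of all genes passed. There were 5 at an unadjusted p under 0.05, and 1 higher by DESeq2, which called 728 higher and 926 lower of 12500 genes. With the block 3 were higher and 3 lower, where 25.5% of genes were called. NDUFAB1 had the smallest p. At 24 h it had 63.9 and 67.5 CPM in MMS cells and 47.5 and 52.0 CPM in DMSO cells, above and without overlap. At 8 h it had 53.2 and 47.3 CPM in MMS cells and 57.5 and 54.3 CPM in DMSO cells, below and without overlap. The difference of the 2 log2 changes was 0.46 (adjusted p = 0.0606 by edgeR, 0.00972 with the block, 0.0319 by DESeq2). For ATP5C1 the difference was -0.33 (adjusted p = 0.239, and 0.0222 with the block).

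Counts were at or near 0 for 9 members, most of them tissue or stress isoforms. COX4I2, COX6A2 and the read-through ATP5J2-PTCD1 had 0 counts in all 16 libraries, which allows up to 3 counts or 0.179 CPM in the smallest library (counting error only). COX8C and NDUFC2-KCTD14 reached at most 1 count, NDUFA4L2 and ATP5L2 at most 2, and COX6B2 and COX7A1 at most 7. These 9 make up all the members that did not pass the filter. Their partners COX4I1, COX6A1, COX6B1, COX7A2, COX8A and NDUFA4 were counted in every library, and none of the 9 exceeded 7 counts in any library of any treatment.

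COX7B2, a testis isoform of a complex IV subunit, split by title start. It had 4.74 and 1.31 CPM in the combination, 3.94 and 1.55 CPM in MMS, 8.53 and 2.36 CPM in sorafenib and 7.82 and 1.82 CPM in DMSO at 24 h, so that replicate 1 was higher each time. In MMS at 24 h its log2 change was -0.88 (adjusted p = 0.591, and 0.0058 with the block), with groups that overlapped. UQCRC1 split the other way, with 119 and 146 CPM in DMSO at 8 h, and was lower in replicate 1 in all 8 groups. Over the 8 groups the level in replicate 1 was 3.89 times that in replicate 2 for COX7B2 and 0.760 times for UQCRC1, with a median of 1.07 over the 82 members.

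Genes that build or serve the respiratory chain were counted from lists chosen with earlier results known. Under MMS at 24 h 12 of 44 assembly factors rose and 1 fell (20 and 4 with the block), with a median log2 change of 0.19. As a background for this and the other lists under MMS, 15.2% of all genes rose and 16.3% fell at 24 h, and 14.5% rose and 12.0% fell at 8 h. For the counts with the block the background is larger. Of 13948 genes, 3212 then rose and 3518 fell at 24 h, and 3122 rose and 2914 fell at 8 h. COX19, a copper-handling factor of complex IV, had 31.9 and 33.5 CPM in MMS cells and 17.1 and 16.8 CPM in DMSO cells (log2 change 0.89 ± 0.10 SE, adjusted p = 9.6e-05, edgeR). BCS1L, which inserts the Rieske protein into complex III, had 45.8 and 43.1 CPM in MMS cells and 25.3 and 22.1 CPM in DMSO cells (0.85 ± 0.10 SE, adjusted p = 0.00012). Neither gene's groups overlapped. TMEM70, an assembly factor of ATP synthase (0.66 ± 0.09 SE), and SDHAF2, an assembly factor of complex II (0.51 ± 0.09 SE), rose as well. At 8 h 3 assembly factors rose and 2 fell under MMS (8 and 4 with the block). COX19 then had 52.2 and 51.9 CPM in MMS cells and 20.3 and 22.1 CPM in DMSO cells (log2 change 1.33 ± 0.10 SE, adjusted p = 3.4e-06).

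Of 31 genes for mitochondrial import, carriers and the inner membrane, 13 rose and 1 fell under MMS at 24 h (median log2 change 0.24), against 4 and 0 at 8 h. With the block these counts were 21 and 1 at 24 h, and 7 and 2 at 8 h. The translocase genes TIMM22 (0.57 at 24 h and 0.58 at 8 h) and TIMM44 (0.70 and 0.68) rose at both times. TIMM8A (0.76) and CHCHD4 (0.70), which handle intermembrane space proteins, rose at 24 h. Of 21 regulators of mitochondrial gene expression, 7 rose and 1 fell at 24 h (10 and 3 with the block), against 4 and 2 at 8 h. Those that rose included POLG (0.61 at 24 h), the mitochondrial DNA polymerase, and C10orf2 (0.88 at 24 h), its helicase. PPARGC1A, a coactivator of mitochondrial biogenesis, fell: it had 1.59 and 1.83 CPM in MMS cells and 6.14 and 6.44 CPM in DMSO cells at 8 h (-1.84 ± 0.21 SE, adjusted p = 6.5e-05), and 5.04 and 6.34 CPM in MMS cells and 9.72 and 9.37 CPM in DMSO cells at 24 h (-0.80 ± 0.19 SE, adjusted p = 0.0083).

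Of 17 cytochrome c and other electron carrier genes, 2 rose and 4 fell under MMS at 24 h, against 2 and 0 at 8 h (2 and 3 with the block). The coenzyme Q synthesis genes COQ2 (log2 change -0.72), COQ6 (-0.62) and COQ5 (-0.53) were among those that fell. Of 24 genes of the tricarboxylic acid cycle and pyruvate oxidation, 2 rose and 6 fell at 24 h, against 2 and 4 at 8 h. SUCLG2, a subunit of succinyl-CoA ligase, had 41.6 and 38.2 CPM in MMS cells and 85.1 and 77.6 CPM in DMSO cells at 24 h, without overlap (-1.08 ± 0.15 SE, adjusted p = 0.00037, edgeR). IDH3A, the catalytic subunit of NAD-dependent isocitrate dehydrogenase, rose (0.71 ± 0.08 SE, adjusted p = 9.7e-05). Of 15 genes of the mitochondrial stress response, 6 rose and 2 fell at 24 h, against 1 and 0 at 8 h (6 and 0 with the block). The median change over all genes was 0.00 at both times.

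In the combination, set against the same DMSO libraries, 16.2% of all genes rose and 17.2% fell at 24 h, and 12.5% rose and 11.8% fell at 8 h. At 24 h 9 of 44 assembly factors rose and 2 fell, 12 of 31 import genes rose and 1 fell, and 7 of 21 regulators rose and 2 fell. Of 17 carriers 2 rose and 4 fell, of 24 cycle genes 2 rose and 6 fell, and of 15 stress genes 6 rose and 2 fell. At 8 h the counts were 7 and 0, 4 and 0, 4 and 2, 0 and 0, 2 and 3, and 3 and 0 in the same order. Leaving out combination replicate 1 at 8 h made them 3 and 0, 2 and 1, 3 and 2, 0 and 0, 1 and 2, and 0 and 0. The block gave 12 and 8 for assembly factors and 19 and 1 for import genes at 24 h, and 12 and 1 for assembly factors, 10 and 2 for import genes and 5 and 0 for stress genes at 8 h. Of 13948 genes, 3448 rose and 3596 fell with the block at 24 h, and 2860 rose and 2654 fell at 8 h. COX19 had 59.6 and 54.0 CPM in combination cells and 20.3 and 22.1 CPM in DMSO cells at 8 h (log2 change 1.41 ± 0.10 SE, adjusted p = 2.6e-06, edgeR), and the change was 1.32 without combination replicate 1 (adjusted p = 7.6e-05). BCS1L had 46.9 and 46.8 CPM in combination cells and 25.3 and 22.1 CPM in DMSO cells at 24 h (0.93 ± 0.10 SE, adjusted p = 5.4e-05). Both were without overlap. For the carriers at 8 h edgeR gave 1 at an unadjusted p under 0.05, DESeq2 called 0, and the block 2 higher.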

How the data were processed

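The authors deposited raw read counts per gene for each of 16 libraries made from total RNA with TruSeq protocols, per the labels' protocols. Per the submitters' processing notes, the tools were CASAVA 1.8.2, TopHat2 2.0.8b with the hg19 genome, and HTSeq, whose version, annotation, mode and strand setting are not given in the sources used here. Reads of paralogs, pseudogenes and overlapping genes may therefore be split or lost. Of the reads, 29.5 to 31.5% per library had several alignments, 6.88 to 7.94% were in no gene and 1.03 to 1.18% were ambiguous. These 5 entries that name no gene were kept out of totals and tests.

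Levels (CPM) are the deposited counts scaled to the gene total of each library, and differences between sums are ratios of geometric means. Tests used edgeR 4.0.16 in R 4.3.3 (TMM factors, filterByExpr, 1 mean per group over all 8 groups, quasi-likelihood test, Benjamini-Hochberg adjusted p under 0.05 over 13948 genes, 8 residual degrees of freedom). Log2 changes use TMM factors and levels do not. There were 12 comparisons. The series text calls the replicates independent experiments, but the labels tie no library to a culture, so p-values measure the spread between these libraries. Titles begin in 2 ways, once per group, taken as replicate numbers. Deviations from group means correlated between same-numbered libraries in all 28 pairs of groups (r 0.489 to 0.707, median 0.638, over all genes tested). Over the members alone r was 0.639 to 0.879 (median 0.788). A fit with the title start as a replicate block (7 residual degrees of freedom) therefore stands beside each result that it altered. The biological coefficient of variation came to 0.0632 with this block, against 0.136 in its absence.

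Members and lists were chosen with earlier results of these data known. The text names core subunits and isoform pairs, up to 5 called members per direction and comparison with the smallest p, and up to 4 called genes per related list, except for a gene that is not reported here. ATP5F1, ATP5D, NDUFC1, ATP5S, COX7B2, CYCS and the genes called only with the block were added after their values were seen. The settings varied were the size factors (RLE), the tool (DESeq2 1.42.0), the filter (none, or 50 counts on average), the block, a fit of just the groups compared, and leaving out each library. The script for the tests was tested on simulated data. Promoter sequences and symbols came from RefSeq tables of GRCh38.p14, with current names for older symbols.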

Additional observations from a re-analysis of the deposited data

Results flagged for a closer look

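For 6 members the effect of MMS differed between 24 h and 8 h by a test of the difference itself, in the fit with the replicate block (log2 change at 24 h minus that at 8 h). The values were 0.46 for NDUFAB1 (adjusted p = 0.00972), -0.34 for ATP5C1 (0.0222), -0.33 for UQCRC2 (0.035), 0.38 for NDUFB3 (0.0395), -0.32 for NDUFA1 (0.0423) and 0.35 for NDUFS3 (0.0484), by edgeR. None of the 6 passed without the block, and DESeq2 called 1, NDUFAB1. In that fit 25.5% of all genes were called.

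NDUFB3, an accessory subunit of complex I, had 27.99 and 24.7 CPM in MMS cells and 25.8 and 23.1 CPM in DMSO cells at 24 h, which overlapped. At 8 h it had 20.7 and 17.5 CPM in MMS cells and 27.0 and 22.2 CPM in DMSO cells, below without overlap. NDUFS3, a core subunit of complex I, had 70.6 and 75.02 CPM in MMS cells and 62.5 and 65.8 CPM in DMSO cells at 24 h, above without overlap. At 8 h it had 55.1 and 46.7 CPM in MMS cells and 63.3 and 58.2 CPM in DMSO cells, below without overlap. NDUFA1, an accessory subunit of the same complex, had 77.4 and 74.0 CPM in MMS cells and 89.1 and 90.3 CPM in DMSO cells at 24 h, below without overlap. At 8 h it had 81.0 and 71.7 CPM in MMS cells and 78.9 and 75.7 CPM in DMSO cells, which overlapped.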

How the results depend on the processing

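With 2 libraries per group, most of the members' calls did not hold when a library was left out. Such a fit has less power, so a lost call need not have been near the threshold. For MMS and the combination against DMSO, fewer of all genes were called as well, at both times and whichever library was left out. The other settings lost 18 of 132 calls and kept 114 (no filter lost 7, only the libraries compared 10, RLE factors 1). Where leaving one out left a lone library, its spread was taken from the other groups. Changes under about 1.5-fold were not always detectable at this spread. In MMS at 24 h ATP5B passed, while ATP5G3, with a change of similar size, passed only with the block. Calls that the replicate block altered stand beside the results, as values or as counts.

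Counts of members called, in either direction, moved as follows. For MMS against DMSO at 8 h (1) they were 2 with RLE factors, 3 with DESeq2, 3 at a mean count of at least 50, 8 with the replicate block and 0 to 2 with a library left out (0 without MMS replicate 1 or DMSO replicate 2, 2 without DMSO replicate 1). For MMS against DMSO at 24 h (9) they were 24 with the block, 4 with only the libraries compared and 2 to 6 with a library left out. For the combination against DMSO at 8 h (1) they were 6 with the block and 0 to 11 with a library left out (11 without combination replicate 2, 0 without combination replicate 1). For the combination against DMSO at 24 h (11) they were 7 with no filter, 24 with the block, 6 with only the libraries compared and 2 to 7 with a library left out. For the combination against MMS at 8 h (0) they were 1 with the block and 0 to 6 with a library left out (6 without combination replicate 2). For DMSO at 24 h against 8 h (0) they were 1 with DESeq2 and 6 with the block. For the MMS effect at 24 h minus 8 h (0) they were 1 with DESeq2, 1 at a mean count of at least 50 and 6 with the block. COX7B2 reversed at 24 h without DMSO replicate 1, with log2 changes of -1.69 to 0.53 for MMS (-0.88 with all libraries) and -1.92 to 0.70 for the combination (-0.71) when a library was left out. With TMM scaling, log2 ratios of sums moved to -0.25 for ATP synthase and -0.12 for all members in MMS at 24 h, to -0.04 for ATP synthase in sorafenib at 24 h, and to -0.06 for complex I, -0.25 for ATP synthase and -0.13 for all members in the combination at 24 h. The cause of these shifts was not tested.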

Other observations

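PPARGC1A, a coactivator of mitochondrial biogenesis, was the regulator with the largest difference between sorafenib and DMSO cells. It had 17.7 and 17.1 CPM in sorafenib cells and 9.72 and 9.37 CPM in DMSO cells at 24 h, without overlap (log2 change 0.86 ± 0.19 SE, adjusted p = 0.0637 by edgeR, and 0.000416 with the replicate block). At 8 h it had 7.96 and 10.6 CPM in sorafenib cells and 6.14 and 6.44 CPM in DMSO cells (0.57, adjusted p = 0.376, and 0.0332 with the block). With the block 7.18% of all genes were called under sorafenib at 24 h and 5.03% at 8 h. The respiratory chain genes themselves gave 0 calls in both comparisons by edgeR, with and without the block, and by DESeq2, with 3 members at 8 h and 1 at 24 h at an unadjusted p under 0.05.

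CYCS, which codes for cytochrome c, the carrier between complexes III and IV, had 273 and 259 CPM in MMS cells and 213 and 230.0 CPM in DMSO cells at 8 h, without overlap (log2 change 0.30 ± 0.09 SE, adjusted p = 0.024 by edgeR). At 24 h its log2 change was 0.22 (adjusted p = 0.072, and 0.0103 with the block). In the combination at 8 h it had 262 and 247 CPM (log2 change 0.19 from DMSO, adjusted p = 0.15, and 0.0362 with the block). Without combination replicate 1 that change was 0.12 (adjusted p = 0.544).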
